A study of Mus musculus with 42 samples.

Results

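The baseline expression that sets lung apart from forestomach was described from 8 of the 42 arrays in the series, 4 of each tissue. Both tissues came from mice 1, 2, 3 and 4, the vehicle controls (dose group D0) of a study of the polycyclic aromatic hydrocarbon benzo(k)fluoranthene (BkF), so that the tissues could be compared within each mouse. The animals were male Muta™Mouse, a strain that carries a lacZ reporter for mutation assays, aged about 11 weeks. All 4 were gavaged with olive oil on 28 consecutive days and were sampled 72 h after the last gavage. Total RNA was taken from random sections of frozen tissue, and each array held the Cy5-labelled RNA of 1 tissue of 1 mouse against Cy3-labelled Universal Mouse Reference RNA, a pool from 11 mouse cell lines. Of the 15 mice in the series, the 10 BkF-dosed mice with both tissues (25, 50 or 100 mg/kg body weight per day) served only to look up whether a baseline difference had the same direction in other animals.

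The 2 tissues are lined by very different epithelia. The gas exchange surface of the lung is a thin sheet of alveolar type 1 cells with cuboidal type 2 cells between them that secrete surfactant, laid over a dense capillary bed, and its airways carry ciliated and secretory club cells. The mouse forestomach is the non-glandular upper compartment of the stomach, and its lining is a keratinized stratified squamous epithelium like that of the skin. Basal cells divide there, and their daughters move outward while they change keratins, build a cornified envelope and seal the gaps with lipid. Behind a ridge the lining changes abruptly to glandular stomach, whose parietal, chief and mucous cells make acid, digestive enzymes and mucus. Both tissues are sites at which polycyclic aromatic hydrocarbons meet epithelium, and the enzymes that activate or clear them differ between cell types.

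Each value below is log2 of the tissue signal over the reference signal for 1 probe, after loess normalization within the array, and each difference is lung minus forestomach on that log2 scale. Because every probe has its own reference level, values of a gene can be compared between tissues and mice, but not between genes. The mean sample-channel intensity was 533 to 2014 on the lung arrays and 337 to 1250 on the forestomach arrays, and the scanner software called 28.1% to 45.4% of probes well above background on forestomach arrays and 41.8%, 52.3% and 53.1% on those of lungs 4, 1 and 2, with lung 3 above them. No spot was saturated, and the number of arrays limits the precision. Across the 26078 probes tested, lung arrays correlated with each other at 0.95 to 0.98, forestomach arrays at 0.84 to 0.95 and lung with forestomach arrays at 0.39 to 0.56, as a description over probes of 8 arrays that share a reference. All lung arrays lay in row 1 of their slides and all forestomach arrays in row 2, so tissue and slide row cannot be told apart. The 10 spike-in control RNAs read lower on lung arrays, by a median difference of -0.62 (range -0.79 to -0.36), and the part of this offset in the differences below was not tested. The reference channel, which held the same RNA on every array, differed between tissues for many of the probes with the largest differences. Of the 351 called probes that differed by at least 4 log2 units, 146 had a raw reference signal at least 2-fold higher on the arrays of the tissue where the sample signal was higher, and 2 on those of the other tissue, against 23 and 2 of 15535 probes that were not called. For Sftpa1, a surfactant gene, the raw reference signal was 2208 to 2979 on lung arrays and 25.0 to 28.0 on forestomach arrays, and for Elovl4, a squamous lipid gene, it was 84.5 to 105 and 85.5 to 117. Where the reference signal moves with the sample, the log ratio differs less than the sample signal does. The cause was not tested. In whole pieces of tissue, fewer cells of a type and less RNA per cell cannot be told apart.

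The forestomach arrays of mice 2 and 3 went against their label in that they also carried the genes of the glandular stomach. Over the 19 glandular stomach genes with a probe, the mean log2 ratio was 4.76 in forestomach 2 and 4.69 in forestomach 3, where 17 of the 19 were well above background, against 0.18 in forestomach 1 and 0.35 in forestomach 4, where 3 were. In the 4 lungs this mean lay between 0.57 and 0.90. Cblif, the gastric intrinsic factor of parietal or chief cells, read 0.03, 7.90, 7.89 and 0.08 in forestomachs 1 to 4, and Atp4a, a subunit of the acid pump, read 0.01, 6.39, 6.09 and -0.24. Gkn2, a gastrokine of surface mucous cells, read 0.94, 7.66, 7.70 and 2.30. So the split was nearly all or nothing for the acid pump and intrinsic factor, while mice 1 and 4 still held some signal of the mucous cell genes Gkn2 and Tff1 (2.86 and 4.08, against 5.17 and 5.68 in mice 2 and 3). Forestomachs 2 and 3 also had higher means over the pancreatic acinar list (1.82 and 1.53, against 0.13 and 0.01) and the liver list (2.13 and 1.93, against 0.23 and 0.27). Forestomachs 2 and 3 were hybridised on the same slide and read brighter (mean sample-channel intensity 1250 and 1062, against 363 and 337). Some genes of the glandular list are lung genes as well: Chia1, an acidic chitinase, read 5.33 to 6.33 in lung and 0.17, 7.88, 7.98 and -0.11 in forestomach. Of its 10 tested genes, 4 were called higher in forestomach and none higher in lung over 4 mice, against 3 and 4 in mice 1 and 4. Each list count below is therefore given for all 4 mice and, where it differs, for mice 1 and 4 alone, a choice made after the data were seen.

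**Figure D1:**
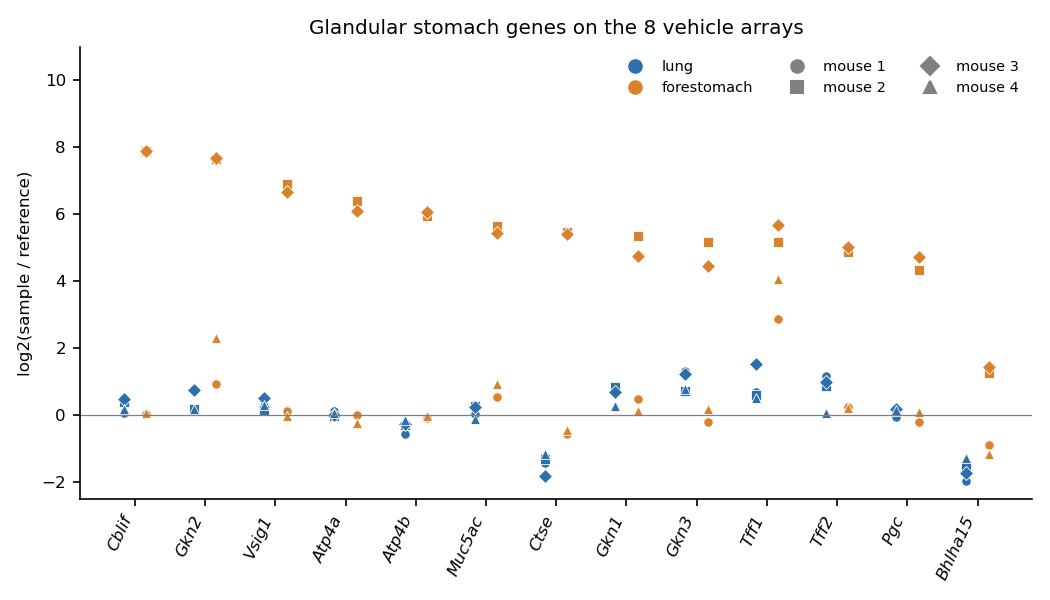
Log2 ratio of sample over reference (vertical axis) for the 13 glandular stomach genes that exceeded every lung by over 2 log2 units on a forestomach array, on the 4 lung (blue) and 4 forestomach (orange) vehicle arrays, 1 point per array, with the mouse shown by the symbol. Forestomachs of mice 2 and 3 stand high, Cblif at 7.90 and 7.89, while those of mice 1 and 4 sit at 0.03 and 0.08.

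In the fit with the mouse as a block, limma called 10543 of 26078 probes (40.4%), where a call needs both an adjusted p within 0.05 and a change of 1.5-fold or more, 5947 of them (22.8%) higher in lung and 4596 (17.6%) higher in forestomach. In 10345 of the 10543 called probes all 4 mice had the same direction. The differences were large: 1870 called probes differed by at least 2 log2 units and 351 by at least 4, of which 142 were higher in lung and 209 higher in forestomach. With 1 probe per gene, 13561 named genes were tested, 3642 (26.9%) were called higher in lung and 2540 (18.7%) higher in forestomach, and the median difference over all of them was 0.09. The groups of 4 did not overlap for 6993 of the 13558 genes with a value on every array (51.6%). In mice 1 and 4 alone, 23.3% of genes were called higher in lung and 15.7% higher in forestomach, with a median of 0.10. These shares are the background for each list count that follows. The share of calls on the lung side depended on the scaling: median centring of each array in place of loess moved the median of all probes from 0.04 to 0.51 and called 11120 probes higher in lung and 1159 higher in forestomach, and the scanner software's own ratio moved that median to 0.14.

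**Figure D2:**
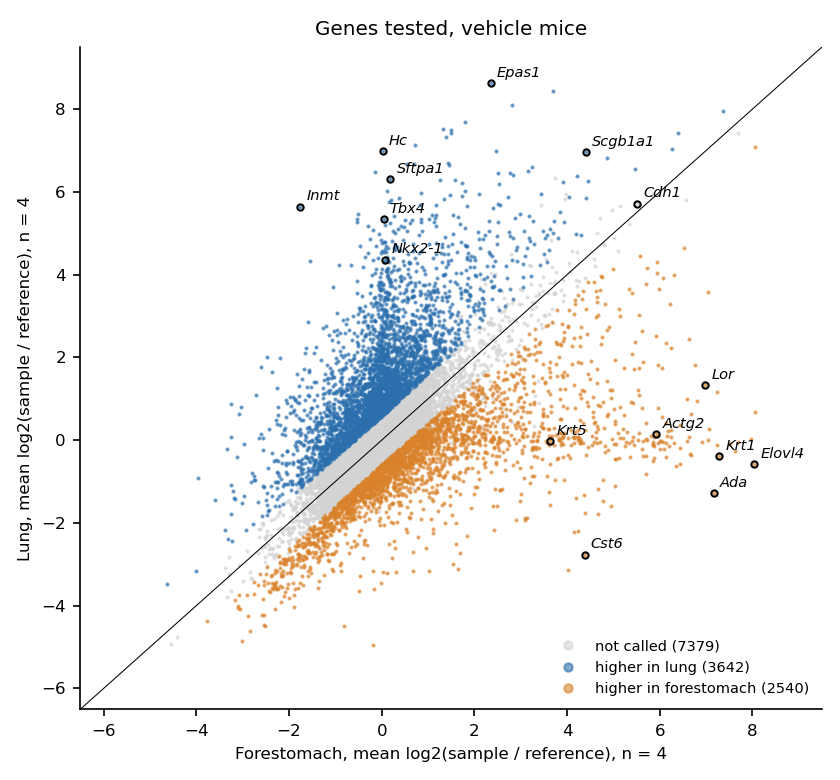
Mean log2 ratio of sample over reference in 4 lungs (vertical axis) against that in 4 forestomachs (horizontal axis), 1 point per tested gene, with genes called higher in lung in blue (3642), those called higher in forestomach in orange (2540) and the rest in grey. The line marks equal values, and the labelled genes, such as Inmt far above it and Elovl4 far below it, are named in the text.

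The 10 genes with the largest difference toward lung were Inmt, Hc, Mlc1, Sftpc, Epas1, Adgrf5, Clic5, Sftpa1, Sftpd and Cyyr1. Their order is of fitted log ratios on each probe's own scale and does not rank the sample signal. Hc, Mlc1 and Sftpa1 were not well above background in any forestomach, so the size of their differences was not measured there. Inmt, an N-methyltransferase of lung fibroblasts, read 5.85, 5.63, 5.74 and 5.35 in lungs 1 to 4 and -1.49, -2.16, -2.27 and -1.09 in the forestomachs, a difference of 7.40 (SE 0.25, limma adjusted p 6.3e-07). Hc, which encodes complement component C5, read 6.24 to 7.39 in lung and was not well above background in any forestomach, where it read -0.12 to 0.20, so it was at least 124-fold higher in lung. Every lung stood above every forestomach for each of these 10 genes. Epas1, the hypoxia-inducible factor of endothelium, is measured by 3 probes that disagreed: the brightest differed by 6.28 and another by 4.29, but the remaining probe read 0.30 to 0.70 in lung and 0.14 to 0.68 in forestomach and did not differ (-0.0029, limma adjusted p 0.99).

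The 10 with the largest difference toward forestomach were Elovl4, Ada, Il1f5, Kprp, Spink5, Krt1, Lce3a, Cstdc5, Crct1 and Cst6. Il1f5, Kprp, Spink5, Krt1, Lce3a and Crct1 were not well above background in any lung, so the size and order of their differences were not measured. Elovl4, an elongase that makes the very long fatty acids of barrier ceramides, read 8.14, 8.25, 7.96 and 7.80 in forestomachs 1 to 4 and -0.68, -0.50, -0.86 and -0.30 in the lungs, a difference of -8.62 (SE 0.16, limma adjusted p 1.8e-07). It was well above background in 1 of the 4 lungs, so the size of this difference rests largely on unmeasured lung signal. Ada, adenosine deaminase, read 7.42, 7.15, 6.91 and 7.20 in the forestomachs and -2.10, -0.18, -1.45 and -1.38 in the lungs, a difference of -8.45 (SE 0.31, limma adjusted p 8.3e-07). These 20 genes did not overlap between tissues in any mouse. They were chosen for large differences with the same direction in mice 1 to 4. Their separation, also in mice 2 and 3 with the glandular signal, follows largely from that choice. Ada, which is not specific to squamous cells, showed its widest spread in lung, where mouse 2 stood above the other lungs.

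**Figure D3:**
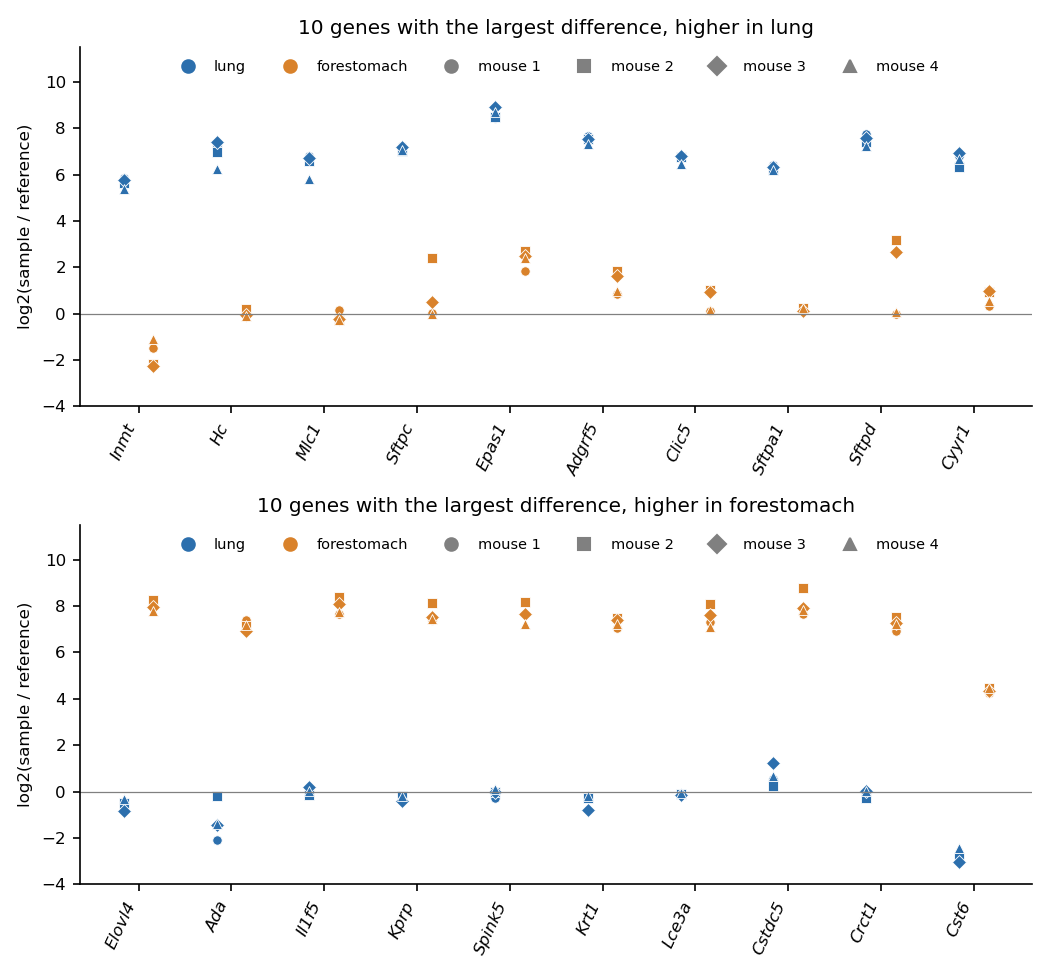
Log2 ratio of sample over reference (vertical axis) for the 10 genes with the largest difference toward lung (top) and toward forestomach (bottom), 1 point per array, lung in blue and forestomach in orange, with the mouse shown by the symbol. The groups are separate for each gene, and Sftpc (2.38) has a forestomach point in mouse 2, and Sftpd (3.19 and 2.68) points in mice 2 and 3, that stand above those of mice 1 and 4.

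The surfactant and alveolar type 2 cell list was among those with the largest medians on the lung side, above the alveolar type 1 list except under median centring (3.29 against 3.47). Of its 15 tested genes, 14 were called higher in lung and 1 higher in forestomach, with a median difference of 4.04. Sftpc, a surfactant protein made by type 2 cells, read 7.24, 7.02, 7.18 and 7.05 in lungs 1 to 4 and 0.03, 2.38, 0.51 and -0.01 in the forestomachs (difference 6.40, SE 0.39, limma adjusted p 1.1e-05). Sftpd, a surfactant collectin, read 7.75, 7.42, 7.59 and 7.25 in lung and 0.00, 3.19, 2.68 and 0.08 in forestomach, so forestomachs 2 and 3 stood between forestomachs 1 and 4 and the lungs, and the difference of 6.01 was 7.46 in mice 1 and 4. Sftpa1, the other collectin, read 6.20 to 6.43 in lung and 0.10 to 0.26 in forestomach, where no array was well above background (difference 6.11). Sftpb, which spreads the surfactant film, differed by 5.89 on its brightest probe, which was not well above background in any forestomach, and by 3.33 on the other. The exception in the list was Fabp5, a fatty acid binding protein that squamous cells also make, at -4.96.

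Type 2 cells and club cells rely on the factor NKX2-1, whose core recognition letters are CTCAAG, and the 250 bases upstream of the start sites of Sftpa1 and Sftpb are shown because both hold those letters and both genes were near background in all 4 forestomachs. The sequences are from RefSeq, mouse build GRCm38.p6, written 5′ to 3′ on the strand of the gene, with CTCAAG in capitals. Sftpa1 lies on the plus strand, window chr14:41131538-41131787, and the letters begin 166 bases before the start. Sftpb lies on the plus strand, window chr6:72304360-72304609, and they begin 100 and 15 bases before the start.
Sftpa1: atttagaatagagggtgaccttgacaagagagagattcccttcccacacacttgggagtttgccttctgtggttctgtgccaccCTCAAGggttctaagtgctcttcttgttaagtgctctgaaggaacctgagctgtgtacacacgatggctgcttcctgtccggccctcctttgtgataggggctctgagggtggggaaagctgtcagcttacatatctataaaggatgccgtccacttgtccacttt
Sftpb: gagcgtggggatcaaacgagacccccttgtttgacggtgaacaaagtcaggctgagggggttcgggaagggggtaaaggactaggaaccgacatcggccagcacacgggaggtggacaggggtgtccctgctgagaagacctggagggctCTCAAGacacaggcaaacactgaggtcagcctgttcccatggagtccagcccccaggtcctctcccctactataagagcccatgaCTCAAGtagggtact
On either strand CTCAAG was present in 4109 of 27025 genes with such a window (15.2%), in 2 of 10 genes of the type 2 cell list (Sftpa1 and Sftpb) and in 4 of 10 of the club cell list, and on the squamous side in 3 of 10 of the stratified keratins, 2 of 17 of the proteases and inhibitors and 3 of 32 of the cornified envelope list. A match of 6 letters is a description of the window and not a bound site.

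Alveolar type 1 cells, the flat cells of the gas exchange surface, showed the same separation, with 13 of 14 tested genes called higher in lung and none higher in forestomach (median 3.48). Ager, the receptor for advanced glycation end products and a classic type 1 marker, read 5.22, 4.86, 5.28 and 4.93 in lung and -0.14, 0.01, -0.18 and -0.49 in forestomach, where it was not well above background (difference 5.27, SE 0.15, limma adjusted p 3.4e-07). Clic5, a chloride channel protein (6.13), Akap5, a kinase anchor (5.92), and Aqp5, a water channel (5.80 by its brightest probe and 3.37 by the other), were also higher in lung. Cldn18, a tight junction claudin with a lung and a stomach form, read 2.70, 2.49, 2.70 and 1.99 in lung but -0.01, 1.98, 2.23 and 0.37 in forestomach. Its lungs overlapped forestomach 3 and lay well above forestomachs 1 and 4, and the difference was 1.33 over 4 mice (limma adjusted p 0.015) and 2.17 in mice 1 and 4. The call for Cldn18 was lost without mouse 4 (limma adjusted p 0.057), and 1 probe cannot tell its forms apart. Hopx was the tested type 1 gene that was not called (0.33).

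In the airway lists, 11 of 13 club and secretory genes were called higher in lung (median 2.15; 12 of 13 in mice 1 and 4) and 18 of 19 genes of ciliated cells (median 2.84). Scgb1a1, the main secretory protein of club cells, read 7.52, 6.19, 7.36 and 6.78 in lung and also 4.75, 4.62, 4.32 and 3.91 in forestomach. The tissues did not overlap (difference 2.56, SE 0.24, limma adjusted p 1e-04), but the raw reference signal moved with the sample, from 3594 to 10480 on lung arrays and 107.6 to 423.6 on forestomach arrays, and the raw sample signal was 127900 to 398900 in lung and 1001 to 1309 in forestomach. Hp, haptoglobin, differed by 5.96, Cyp4b1, a cytochrome P450 of club cells, by 5.28, and Gabrp, a GABA receptor subunit, by 3.89. Among genes of motile cilia, the dynein arm genes Dynlrb2 (4.72) and Dnah5 (4.55, at least 9.20-fold), the axonemal tektin Tekt1 (4.07) and the cadherin Cdhr3 (3.87, at least 7.60-fold) were not well above background in any forestomach. Dnaic1, another dynein arm gene, was the exception at -0.82.

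Lung transcription factors were called higher in lung for 13 of 14 genes (median 3.50). Tbx4, a T-box factor of lung mesenchyme, read 5.27, 5.16, 5.34 and 5.56 in lung and -0.00, 0.14, 0.01 and 0.01 in forestomach (difference 5.29, SE 0.14, limma adjusted p 2.4e-07). Nkx2-1, the factor that specifies lung epithelium, read 4.75, 4.15, 4.62 and 3.92 in lung and 0.06 to 0.09 in forestomach, where it was not well above background (difference 4.29). Tbx3 differed by 4.08. Foxa2, a factor of endoderm that glandular stomach also uses, read 5.34 to 5.56 in lung and -0.56, 3.63, 3.62 and -0.54 in forestomach, so its difference was 3.91 over 4 mice but 5.99 in mice 1 and 4.

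Beyond epithelium, the endothelial list had 25 of 26 genes called higher in lung (median 3.31), which is the broadest of the non-epithelial lists by count. Cdh5, the cadherin that joins endothelial cells, read 7.49, 7.28, 7.53 and 7.35 in lung and 0.68, 1.94, 2.43 and 0.95 in forestomach (difference 5.91, SE 0.28, limma adjusted p 3.1e-06). Tmem100 (5.48), the phosphatase Ptprb (4.72) and Gpihbp1, which anchors lipoprotein lipase on capillaries (4.52), followed, and Kdr was the member not called (-0.17). In the list of lung fibroblasts and elastic matrix, 12 of 15 were higher in lung and 1 higher in forestomach (median 1.85; 11 and 1 in mice 1 and 4), with Inmt, Limch1 (5.89), the fibroblast factor Tcf21 (3.02) and the growth factor receptor Pdgfra (2.84) at the top. The call for Tcf21 was lost with the scanner software's ratio (1.03, limma adjusted p 0.087).

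Genes of blood and immune cells were also mostly higher in lung. Alveolar macrophage genes were called higher in lung for 13 of 15 and higher in forestomach for 2 (median 3.02; 13 and 1 in mice 1 and 4), MHC class II antigen presentation for 8 of 10 (median 1.79), B and plasma cells for 7 of 10 (1.07), T and NK cells for 7 of 11 (1.41; 6 in mice 1 and 4), neutrophils for 6 of 8 (1.25; 5 in mice 1 and 4) and red cells for 4 of 5, with 1 higher in forestomach (1.57; 4 and 0 in mice 1 and 4). Ear1, an eosinophil-associated ribonuclease of alveolar macrophages, read 4.36 to 5.49 in lung and 0.12 to 0.35 in forestomach (difference 4.80, at least 17.2-fold). Chil3, a chitinase-like protein of alveolar macrophages, read 1.44, 3.73, 1.36 and 1.52 in lung, with mouse 2 above the others, and -2.97 to -1.47 in forestomach (difference 4.48). Fabp4, which macrophages and fat cells share, was called the other way (1.13 to 2.07 in lung, 5.84 to 6.34 in forestomach, difference -4.30). Gzma, a granzyme of NK and T cells, differed by 5.46 and was at least 31.6-fold higher in lung, the invariant chain Cd74 differed by 3.63, and Cd79b, a part of the B cell receptor, by 4.13. S100a9, a neutrophil protein that stressed squamous cells also make, differed by 1.82 over 4 mice but by -0.11 with the scanner software's ratio (limma adjusted p 0.73). Its call was also lost without mouse 1 (1.46, limma adjusted p 0.054). Under median centring the medians were 2.12 for alveolar macrophages and 0.93 for neutrophils, with 4 neutrophil calls. With the scanner software's ratio they were 2.6 for MHC class II, 2.35 for B and plasma cells and 2.39 for T and NK cells. Lungs were not stated to be perfused, and the part of blood in these differences was not tested.

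**Figure D4:**
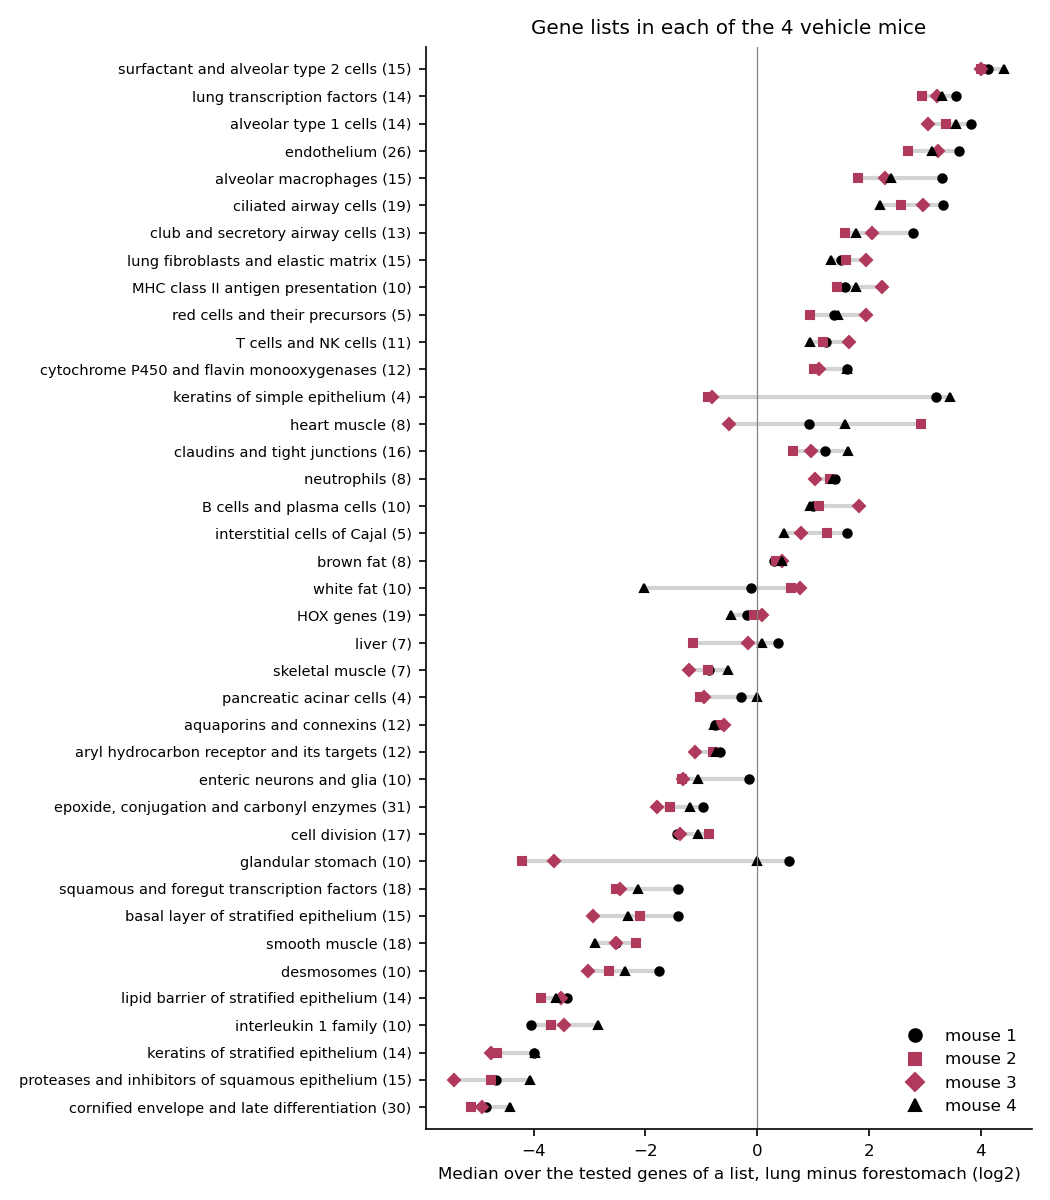
Median difference over the tested genes of each list (horizontal axis, lung minus forestomach, log2), 1 point per mouse, with the number of genes tested in parentheses; mice 1 and 4 are black, mice 2 and 3 red, and the grey line spans the 4 mice. Lung epithelium and endothelium lie to the right and squamous lists to the left in all 4 mice, while glandular stomach and the keratins of simple epithelium split mice 1 and 4 from mice 2 and 3.

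On the forestomach side, 14 of 14 tested keratins of stratified epithelium were called higher in forestomach, with a median difference of -4.52 (13 of 14 in mice 1 and 4). Krt1, a keratin of differentiating suprabasal cells, read 7.04, 7.50, 7.38 and 7.21 in forestomachs 1 to 4 and -0.24, -0.27, -0.81 and -0.20 in lung, where it was not well above background (difference -7.66, SE 0.18, limma adjusted p 1.8e-07). Its partner Krt10 differed by -7.01 on its brightest probe and by -3.87 on the other. Krt13 and Krt4, the keratin pair of internal squamous linings, were high beside them: Krt13 read 4.44 to 4.95 in forestomach and -2.29 to -1.23 in lung (difference -6.45), and Krt4 read 6.02 to 6.63 against -0.21 to 0.10 (difference -6.39). The forestomachs thus held the keratin pairs of both skin-like and mucosal squamous layers, with no overlap with lung in any of the 4 genes. The basal keratins also differed, Krt5 by -3.65 (3.38 to 3.82 in forestomach, -0.12 to 0.16 in lung), Krt14 by -4.44 and Krt15 by -4.70. The raw reference signal of Krt5 was 59.5 to 77.0 on lung arrays and 7482 to 11920 on forestomach arrays, so these differences, on each probe's own scale, do not rank the keratins.

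The cornified envelope list, the proteins that are cross-linked under the membrane of dying squamous cells, had 28 of 30 tested genes called higher in forestomach and 1 higher in lung, with a median of -4.97 (26 and 2 under median centring, median -2.45). Lce3a, a late cornified envelope protein, read 7.30, 8.07, 7.62 and 7.08 in forestomach and -0.17 to -0.07 in lung (difference -7.62). Crct1 differed by -7.35, Cdsn, the corneodesmosome glycoprotein, by -7.14 and Cysrt1 by -6.98. Lor, loricrin, the main envelope protein of skin, read 6.83, 6.90, 7.17 and 7.04 in forestomach and 1.73, 1.55, 1.44 and 0.59 in lung (difference -5.66, SE 0.22, limma adjusted p 1.2e-06). Ivl, involucrin, read 1.37, 0.87, 1.33 and 0.72 in forestomach and -0.17, 0.41, -0.01 and -0.23 in lung (difference -1.07, at least 1.95-fold). Tchh, trichohyalin of hair follicle and tongue, was the member called higher in lung (1.54).

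AP-1 is a dimeric factor long linked to late squamous genes, and its letters TGANTCA stand upstream of many genes of this list. The windows of Sprr1a (difference -6.44) and Lor are shown as examples that hold the letters. They are 250 bases upstream, from RefSeq, build GRCm38.p6, 5′ to 3′ on the strand of the gene, with TGANTCA in capitals. Sprr1a lies on the minus strand, window chr3:92485882-92486131, with matches that begin 146 and 116 bases before the start. Lor lies on the minus strand, window chr3:92083143-92083392, with a match 48 bases before the start.
Sprr1a: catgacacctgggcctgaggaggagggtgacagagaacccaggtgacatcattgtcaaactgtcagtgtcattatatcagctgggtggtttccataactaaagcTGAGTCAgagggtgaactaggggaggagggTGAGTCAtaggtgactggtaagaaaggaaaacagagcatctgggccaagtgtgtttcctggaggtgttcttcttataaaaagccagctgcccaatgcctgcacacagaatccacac
Lor: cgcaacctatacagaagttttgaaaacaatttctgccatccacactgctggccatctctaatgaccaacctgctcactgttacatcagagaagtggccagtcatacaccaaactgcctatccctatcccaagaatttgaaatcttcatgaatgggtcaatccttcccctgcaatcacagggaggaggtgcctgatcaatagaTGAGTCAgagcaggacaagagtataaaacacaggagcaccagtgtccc
TGANTCA was found on either strand in 2113 of 27025 genes with a window (7.82%), in 17 of 32 of the cornified envelope list (53.1%), in 1 of 10 of the stratified keratins, in 3 of 17 of the squamous proteases and inhibitors, in 3 of 10 of the club cell list and in 1 of 10 of the type 2 cell list. TATAAA, the TATA box letters, were found in 14.3% of all genes with a window and in 16 of 32 of the cornified envelope list. None of these shares was tested. The cornified envelope list holds several members of the Sprr and Lce gene families, and whether members of a family share upstream sequence was not tested. In the Sftpb window TGANTCA also occurs and overlaps the CTCAAG nearer to the start.

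The proteases and inhibitors that control shedding of squamous cells were called higher in forestomach for 15 of 15 tested genes, with a median of -4.94. Spink5, an inhibitor of skin kallikreins, read 7.64, 8.17, 7.67 and 7.24 in forestomach and -0.28, -0.04, -0.01 and 0.12 in lung (difference -7.73, SE 0.19, limma adjusted p 2e-07). Klk5, a kallikrein protease that Spink5 inhibits, differed by -6.17, the cystatin Cst6 by -7.14 and the serpin Serpinb5 by -6.52. Inhibitors and the proteases they hold in check thus stood on the same side. The lipid barrier list had 14 of 14 genes called higher in forestomach (median -3.45; 12 under median centring, median -1.70). It was led by Elovl4, the ceramide synthase Cers3 (-6.08; 6.28 to 6.80 in forestomach, 0.23 to 0.50 in lung), the lipid transporter Abca12 (-5.73, at least 39.2-fold) and the lipase Lipm (-5.53, at least 28.8-fold), and the lipoxygenase Alox12b lay at -2.97, in a range of -8.62 to -1.37.

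Cell contacts divided by type. Of 10 tested desmosome genes 6 were called higher in forestomach and 1 higher in lung (median -2.56). Pkp1, a plakophilin of squamous desmosomes, read 3.97, 4.24, 4.28 and 4.07 in forestomach and -2.66 to -1.82 in lung (difference -6.36), whereas its relative Pkp2 was called higher in lung (2.02). The desmosomal cadherins Dsc1 (at least 8.58-fold higher in forestomach), Dsg3 (at least 5.89-fold) and Dsg1b (at least 5.94-fold) were not well above background in any lung. Tight junction genes went the other way, with 10 of 16 called higher in lung and 1 higher in forestomach (median 1.25). With the scanner software's ratio these counts were 7 and 3. Cldn3 (4.82), the endothelial claudin Cldn5 (3.68), Cldn10 (3.53) and Cldn7 (3.20) led the lung side. Gap junction and water channel genes split within the family: Aqp3 (-6.30) and Gjb2 (-4.93) were higher in forestomach and Aqp5 higher in lung, 6 and 4 of 12 called each way (6 and 5 in mice 1 and 4). Cdh1, the cadherin of all epithelia, read 5.42 to 5.91 in lung and 4.59 to 6.20 in forestomach, overlapped between tissues and was not called (0.21, 95% interval -0.44 to 0.86, limma adjusted p 0.56). Epcam was not called either (-0.63, limma adjusted p 0.052), but was called higher in forestomach with normexp (limma adjusted p 0.043), with the deposited value table (0.041) and without mouse 4 (-0.85, 0.025).

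Keratins of simple epithelium split the mice in the way of the glandular genes, and the part of glandular tissue or of the shared slide and brighter signal of forestomachs 2 and 3 was not tested. Over 4 mice only Krt7 of 4 tested genes was called (3.16). With slide in place of mouse as the block, Krt18 was also called higher in lung (2.135, limma adjusted p 0.048). Krt18 read -0.22 to 0.01 in lung and -3.79, 0.36, 0.31 and -4.11 in forestomach, and Krt19 read 1.76 to 2.11 in lung and -1.19, 3.27, 3.15 and -1.25 in forestomach. For both genes the lungs lay far above forestomachs 1 and 4 and below forestomachs 2 and 3. In mice 1 and 4 alone all 4 keratins were called higher in lung (median 3.39), Krt18 by 3.85 and Krt19 by 3.13.

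Among transcription factors of squamous epithelium and foregut, 15 of 18 were called higher in forestomach and none higher in lung (median -1.90; 14 of 18 in mice 1 and 4). Under median centring 9 were higher in forestomach and 1 higher in lung (median -0.81). Pitx1, a homeodomain factor, read 5.24, 5.50, 5.38 and 5.29 in forestomach and -0.68 to -0.19 in lung, where it was not well above background (difference -5.76, SE 0.15, limma adjusted p 2.2e-07). Grhl3 (-5.49) and Grhl1 (-3.81), grainyhead factors of barrier epithelium, and Tfap2c (-4.92) followed. Trp63, the master factor of stratified epithelium, depended on the probe. Its brightest probe read 0.17 to 0.62 in lung and -0.18 to 0.45 in forestomach and was not called (0.32, limma adjusted p 0.074), while the other probe read -0.56 to -0.42 in lung and 5.31 to 6.46 in forestomach (-6.56, limma adjusted p 4.1e-07). Which transcripts the 2 probes detect was not tested. In the basal layer list 9 of 15 genes were higher in forestomach and 4 higher in lung (median -2.08), with the laminin genes Lamb3 (1.16) and Lama3 (1.78) and the integrin Itga6 (1.76), which lung epithelium also uses at its basement membrane, on the lung side. Perp, a membrane protein of desmosome-bearing cells, led the forestomach side at -6.10.

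The interleukin 1 family also separated, with 6 of 10 higher in forestomach and 2 higher in lung (median -3.73, but -2.00 under median centring and -0.45 with no filter on dim probes). Il1f5, an interleukin 36 receptor antagonist, read 7.68, 8.38, 8.08 and 7.75 in forestomach and -0.13 to 0.18 in lung (difference -7.95, at least 239-fold). The agonists of the same receptor, Il1f6 (-7.04) and Il1f9 (-4.51, at least 21.2-fold), lay on the same side, as did the decoy receptor Il1r2 (-3.80). Il1b (1.76) and the signalling receptor Il1r1 (1.08) were the 2 members higher in lung.

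The wall under the epithelium showed in smooth muscle and nerve genes. Of 18 smooth muscle genes 16 were called higher in forestomach and none higher in lung (median -2.31). Actg2, the actin of visceral smooth muscle, read 6.13, 5.62, 6.32 and 5.64 in forestomach and 0.36, -0.01, 0.30 and -0.09 in lung (difference -5.79, SE 0.13, limma adjusted p 1.8e-07). Tpm2 (-4.24), Tagln (-3.98) and Synpo2 (-4.18, but -0.83 on its other probe) followed. Enteric neuron and glia genes were called higher in forestomach for 7 of 10 over 4 mice and 3 of 10 in mice 1 and 4 (medians -0.93 and -0.52). Tac1, the substance P precursor, read 3.97, 5.67, 5.24 and 4.42 in forestomach (difference -5.12, at least 21.3-fold), and Vip, a neuropeptide of inhibitory motor neurons, read 4.18 and 4.63 in forestomachs 2 and 3 and 2.40 in forestomach 4, with forestomach 1 lowest and no lung well above background (difference -3.22, at least 5.18-fold). For both, forestomachs 2 and 3 were the highest. Markers of the interstitial cells of Cajal gave no single direction, with 3 of 5 higher in lung and 1 in forestomach, where Kit (3.93) also marks mast cells and lung endothelium and Gpr20 differed by -2.30, a call lost under median centring (-0.80, limma adjusted p 0.056).

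HOX genes, which record position along the body axis, were tested for 19 of 39, with 7 called higher in forestomach and 3 higher in lung (7 and 2 in mice 1 and 4). Neighbours of the C cluster led: Hoxc4 read 1.59, 1.13, 1.66 and 2.24 in forestomach and -3.13, -3.25, -3.46 and -2.60 in lung (difference -4.76, SE 0.16, limma adjusted p 5.6e-07), Hoxc6 differed by -4.75 and Hoxc5 by -4.32 (at least 17.0-fold). Hoxa5 (1.82), a gene that lung mesenchyme uses, Hoxb5 (1.39) and Hoxb4 (0.80) were the genes higher in lung, and Hoxb7 lay at -1.86. The list as a whole had no direction, with a median of -0.01 that became 0.23 under median centring.

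Genes of cell division were called higher in forestomach for 15 of 17 and higher in lung for none (median -1.25; 13 of 17 in mice 1 and 4), but under median centring the count fell to 2 each way, with a median of -0.30, or -0.81 relative to all probes. Birc5, survivin, read -2.92, -2.34, -2.31 and -2.55 in forestomach and -4.51 to -4.37 in lung (difference -1.93, SE 0.15, limma adjusted p 3.2e-05), and Ccnb1, a mitotic cyclin, differed by -1.76. Both tissues lay below the reference, a pool of growing cell lines. Cdk1 (-1.53) lost its call under median centring (limma adjusted p 0.076).

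The aryl hydrocarbon receptor (AhR) senses BkF and related compounds, enters the nucleus with its partner ARNT and switches on Cyp1 enzymes, while AHRR and TIPARP act back on it. In vehicle mice Ahr read 1.88, 1.74, 2.23 and 1.87 in lung and -0.06, -0.24, -0.17 and -0.54 in forestomach (difference 2.19, SE 0.15, limma adjusted p 1.9e-05), with every lung above every forestomach. Cyp1a1, the enzyme that oxidizes these compounds, read 3.29, 2.35, 2.09 and 2.96 in lung and 0.60, 0.38, -0.01 and -0.39 in forestomach (difference 2.53, SE 0.23, limma adjusted p 8.7e-05). It was well above background in 4 lungs and 1 forestomach, so the size of this difference rests largely on unmeasured forestomach signal. Arnt differed by 0.64 (limma adjusted p 0.019) on its brightest probe and by -0.13 on the other, and the call was lost without mouse 1 or mouse 3 (limma adjusted p 0.056 and 0.074), as the mean of its probes (0.25, limma adjusted p 0.12), by the ratio of the scanner software (0.67, limma adjusted p 0.082) and with the deposited value table, where 0.54 was under 1.5-fold. Cyp1b1, a relative of Cyp1a1 that mesenchymal cells express, went the other way, with -1.93, -2.64, -2.01 and -1.41 in lung and -0.78, -1.04, -0.94 and -0.59 in forestomach (difference -1.16, SE 0.16, limma adjusted p 0.00068), though under median centring it was -0.20 and not called (limma adjusted p 0.55). Ahrr was well above background in no lung and in 2 forestomachs and was not tested (-0.93 to -0.25 in lung, 0.04 to 0.47 in forestomach), and Cyp1a2 was not tested either and read -0.22 to 0.19 on all 8 arrays.

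Other AhR-linked enzymes stood higher in forestomach. Nqo1, a quinone reductase, read 2.91, 3.75, 3.26 and 2.09 in forestomach and -1.69 to -1.07 in lung (difference -4.30, SE 0.30, limma adjusted p 2.3e-05). Gsta1, a glutathione transferase, differed by -5.75 (3.60 to 5.75 in forestomach, higher in mice 2 and 3) and the aldehyde dehydrogenase Aldh3a1 by -2.49. Of the 12 tested genes of the list, 5 were higher in lung and 7 higher in forestomach (median -0.86; 4 and 7 in mice 1 and 4), and Tiparp lay at 0.66. Under median centring the counts were 5 and 3 (median -0.12), and 2 and 7 with the deposited value table. In the list of epoxide, conjugation and carbonyl enzymes 17 of 31 were higher in forestomach and 9 higher in lung (median -0.99; 17 and 7 in mice 1 and 4), led by Aldh3b2 (-6.02, at least 35.2-fold), Ugt2b34 (-5.85, but -4.05 in mice 1 and 4) and Gsta2 (-5.72), while Sult1a1, a sulfotransferase, was highest on the lung side at 3.65. Of the 12 tested cytochrome P450 and flavin monooxygenase genes 7 were higher in lung, with Cyp4b1 and Fmo1 (4.60) among them, and 3 higher in forestomach (median 1.34; 7 and 2 in mice 1 and 4). With the scanner software's ratio the counts were 4 and 3 (median 0.60), and with no filter on dim probes the median was 0.26. Cyp3a13 was higher in forestomach (-2.82), with -0.28 on its other probe.

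The same genes were looked up in the 10 BkF-dosed mice, where lung and forestomach of each mouse were again compared. Ahr kept its direction in 10 of 10, with a median difference of 1.74 (0.27 to 2.54), and Nqo1 stayed higher in forestomach in 10 of 10, with a median of -3.63. Cyp1a1 differed by 1.98 to 3.35 in the 4 vehicle mice and by 3.68 to 8.09 in the 10 dosed mice. The vehicle differences rest on forestomach signal that was well above background in 1 of the 4 forestomachs. Cyp1b1 was higher in forestomach in all 4 vehicle mice (-1.61 to -0.82) and higher in lung in all 10 dosed mice (1.24 to 4.63). Ahrr was 1.30 to 3.71 higher in lung in dosed mice, while its vehicle difference has no measured side in lung and gives no direction. In dosed lungs the median log2 ratio was 3.87 for Cyp1b1 and 4.00 for Ahrr, against -1.97 and -0.69 in vehicle lungs, and in forestomachs it was -0.08 and 0.87 against -0.86 and 0.22, the vehicle lung value of Ahrr being of signal not well above background. These differences between vehicle and dosed mice were not tested.

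**Figure D5:**
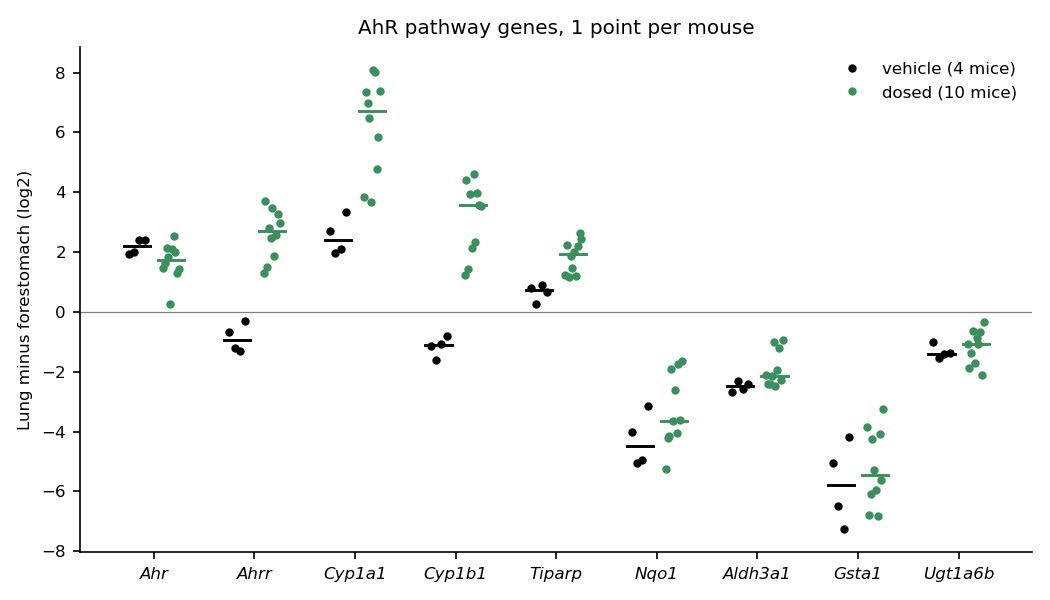
Lung minus forestomach difference (vertical axis, log2) of 9 AhR pathway genes, 1 point per mouse, for 4 vehicle mice (black) and 10 BkF-dosed mice (green), with a bar at each median. Cyp1b1 lies below 0 in all vehicle mice and above 0 in all dosed mice, as do the points of Ahrr, whose vehicle points rest on signal not well above background in any lung, whereas Ahr and Cyp1a1 lie above 0 and Nqo1, Aldh3a1, Gsta1 and Ugt1a6b below 0 in all mice shown.

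Over all probes, limma called 8851 of 25417 (34.8%) between lung and forestomach in the dosed mice, and 22.8% of genes were called higher in lung and 17.3% higher in forestomach there, with a median of 0.04. Of the 10543 probes called in vehicle mice, 10133 were tested in dosed mice, 10063 had the same direction and 7710 were called in that direction, and 1 was called the other way. Among all probes tested in both sets, 88.6% had the same direction. Not every leading gene kept its direction in each dosed mouse. Ada, Cstdc5 and Crct1 did so in 9 of 10, with differences up to 0.92, 0.40 and 0.95. Elovl4 and Cst6 did so in 10 of 10, as did Epas1, Adgrf5, Clic5 and Cyyr1 on the lung side. Most lung and squamous lists kept their side: 13 of 15 type 2 cell genes (median 3.74), 25 of 26 endothelial genes (3.19), and on the forestomach side 13 of 13 stratified keratins (-3.60), 22 of 25 cornified envelope genes (-4.61) and 17 of 17 smooth muscle genes (-1.93) were called on the forestomach side, among them Pcp4 and Myocd, which were not called in vehicle mice. Other lists differed more from vehicle mice: the AhR list had 7 of 13 higher in lung and 5 higher in forestomach (median 0.70), simple keratins 1 and 2 of 5 (median -1.08), aquaporins and connexins 5 and 5 of 12 (median 0.27), and the glandular stomach list 0 and 11 of 13 (median -2.81). The interleukin 1 family had 2 of 9 higher in lung and 5 higher in forestomach, with a median of -1.22. In 7 of the 10 dosed forestomachs the glandular stomach mean was 3.77 to 4.95 and in 3 it was 0.44 to 0.86, so the same mixture occurred there. A dosed lung carried glandular genes too: the mean was 2.82 in lung 7, with 17 of the genes well above background. In lung 8 it was 1.22, with 16, and in the remaining dosed lungs 0.49 to 0.94. The effect of lung 7 on the dosed comparison was not tested.

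Genes of neighbouring tissues were checked on the same arrays. Heart muscle genes were highest in the lung of mouse 2 (list mean 2.22, against -0.05 to 0.88 in the other lungs): Myh6, the atrial myosin, read 3.43, 5.61, 0.54 and 4.88 in lungs 1 to 4 and -0.21 to 0.19 in forestomach, and Myl4, an atrial light chain, read 3.95 in lung 2, 0.59 in lung 1 and -0.03 in lung 3. Skeletal muscle genes were higher in forestomach for 4 of 7 and in lung for none (median -0.67), with the skeletal actin Acta1 at -4.07, a gene that smooth muscle tissue can also express, and Tnni2 at -3.77. Fat genes had no common direction, with Cidea at -3.39 and Fabp4 higher in forestomach and the mitochondrial Cox8b at 2.52, and a median of 0.18 for brown fat and 0.04 for white fat (-0.98 in mice 1 and 4). The pancreatic colipase Clps read 0.62, 6.66, 6.90 and 0.27 in forestomach, and its call (-3.35, limma adjusted p 0.040) was absent in mice 1 and 4 (-0.19). The 7 tested liver genes lay between -0.57 and 0.89, with a median of -0.33 (0.33 in mice 1 and 4). The part of adhering tissue in the differences above was not tested.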

How the data were processed

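Lung and forestomach of 4 vehicle-treated mice were profiled on 2-colour Agilent mouse gene expression arrays, 1 array per sample, with no dye swap. The authors deposited the scanner output of each array (Feature Extraction 10.7.3.1 per the file headers), which holds median spot intensity per channel and the scanner software's log10 ratio of red over green, and a matrix of log2 ratios that they had normalized by LOWESS without background subtraction. Here log2 of median red over median green intensity was normalized array by array with loess from limma 3.58.1 (R 4.3.3), with control spots left out. The authors' methods name MAANOVA, for which limma's lmFit and eBayes were used, and their thresholds (adjusted p of 0.05, 1.5-fold) were kept.

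Probes entered the tests when 4 or more of the 8 arrays had a tissue signal that the scanner software called well above background (10 of 20 for dosed mice). The model held mouse and tissue, and p-values were adjusted by Benjamini-Hochberg over all probes tested. Both tissues of a number came from the same animal, as the labels state, so the numbers pair the samples, and the correlations of paired deviations were -0.04, 0.12, 0.25 and 0.35. The mice are separate animals, and n is 4 throughout for vehicle mice.

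Symbols came from the array files and RefSeq (GRCm38.p6): 26413 of 55681 probes had a symbol, and 602 of 617 genes of the 39 lists had a probe. A gene is represented by its probe with the highest mean sample intensity. A fold of at least N compares the brighter tissue with the higher of the dimmer tissue's signal and the lowest signal well above background on each array, from single-channel values after loess and Aquantile. It is open to dye bias. Of 49 tested named genes with such a bound, 18 had a bound above the fold of their log ratios, and for these the fitted difference alone is given, which for a tissue below background rests on unmeasured signal. The members, lists and tests were chosen with earlier results of these data known. Named genes are the 10 with the largest difference in each direction, up to 4 per list by size of difference, the AhR and marker genes given for every comparison, and glandular genes over 2 log2 units above all lungs. Outside that rule, Alox12b, Chia1, Dnaic1, Fabp5, Hopx, Hoxa5, Hoxb4, Hoxb5, Il1b, Il1r1, Itga6, Kdr, Klk5, Lama3, Lamb3, Myocd, Pcp4, Pkp2, Sprr1a, Sult1a1, Tchh and Tiparp were chosen after their values were seen. The fitting procedure was tested on simulated data. Alternatives were the scaling, background correction, filter, threshold, block, probe summary and samples used. Liver arrays were not used here, and some genes that the rule names are not reported here.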

Additional observations from a re-analysis of the deposited data

Results flagged for a closer look

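Among 434 groups of 4 values examined, 17 held a value far from the other 3, which is fewer than the about 1 in 20 that chance gives. In lung, mouse 4 was lowest for Ano1 (3.26, others 3.47 to 3.48), Cidec (2.74, others 3.60 to 3.78), Ear2 (5.37, others 5.92 to 6.01) and Lipm (-0.24, others 0.05 to 0.11), and for the mean of the basal layer list (0.50, others 0.60 to 0.61) and of the white fat list (0.60, others 1.33 to 1.44). The white fat mean was highest in forestomach 4 (2.19, others 1.07 to 1.21). Lung 2 was highest for Chil3 (3.73, others 1.36 to 1.52) and Birc5 (-4.37, others -4.51 to -4.49) and lowest for Grhl1 (0.70, others 0.88 to 0.91). Lung 3 was highest for Gkn2 (0.76, others 0.18 to 0.23) and Kcnk3 (2.95, others 2.14 to 2.20) and lowest for Krt1 (-0.81, others -0.27 to -0.20), and lung 1 was lowest for Cyp3a13 (0.11, others 0.30 to 0.33). In forestomach, mouse 1 was highest for Mlc1 (0.17, others -0.27 to -0.22) and lowest for Tagln (4.36, others 4.60 to 4.63), and mouse 2 was highest for Tbx4 (0.14, others -0.00 to 0.01). Lipm and Krt1 were not well above background in any lung, nor Mlc1 and Tbx4 in any forestomach. Their values there are of unmeasured signal.

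The difference of lung and forestomach had opposite signs in vehicle and dosed mice for Cyp1b1, with a mean of -1.16 in 4 vehicle mice, since all 10 dosed mice were higher in lung. Ahrr had a mean of -0.88 in vehicle mice and was also higher in lung in all 10 dosed mice, but it was well above background in no vehicle lung and in 2 vehicle forestomachs, so its vehicle sign was not measured. The difference between vehicle and dosed mice was not tested.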

How the results depend on the processing

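The count of 10543 called probes was 8782 to 12279 under the alternatives that kept the 1.5-fold threshold, and a threshold of 2-fold gave 5847 (3500 higher in lung, 2347 higher in forestomach) and, in dosed mice, 4760 (2944 and 1816), by construction. Without the mouse as a block the count was 10290 (8823 in dosed mice), of which 10270 were called the same way with the block, and among the 168 tested named genes dropping the block ended 1 call, that of Clps (limma adjusted p 0.071). Leaving out each mouse in turn gave 9933 to 10998 probes (5571 to 6163 higher in lung, 4297 to 4835 higher in forestomach). Mice 1 and 4 alone, chosen after seeing the data, gave 8782, of which 8202 were shared. Median centring gave 11120 higher in lung and 1159 higher in forestomach (90.6% of calls on the lung side, against 56.4%), and 11187 and 1000 in dosed mice, and turned 1053 called probes the other way. The scanner software's ratio gave 11565 and turned 51, and the remaining settings gave 10293 to 11482 with none turned. Quantile scaling of the reference channel left every log ratio as it was. Of 39 list medians, 21 moved by more than the spread between mice under median centring, 21 with the scanner ratio and 10 with no filter; under median centring the median was -2.14 for stratified keratins, -2.82 for squamous proteases, -1.35 for desmosomes, -1.02 for the basal layer, -1.29 for smooth muscle (12 calls), -0.40 for enteric neurons and glia (4 calls), -0.49 for conjugation enzymes (14 and 13 calls), -0.14 for aquaporins and connexins, -0.20 for skeletal muscle (2 calls) and 2.15 for lung transcription factors, and HOX genes had 5 calls in forestomach and 7 in lung. Of the 168 named genes, 12 lost and 2 gained a call under median centring, among them Ivl (lost, -0.54 being under 1.5-fold) and Trp63 (gained, 1.18), and 8 lost a call with the scanner ratio. Medians that lay within the spread between mice turned sign as well, among them glandular stomach (0.28), white fat (-0.98) and liver (0.33) in mice 1 and 4 and white fat with the scanner ratio (-0.29). Signs also turned for the brown fat median (-0.063 with the scanner ratio, -0.10 with no filter), Cidec (-0.011) and S100a9 (-0.11) with the scanner ratio, Gkn3 in mice 1 and 4 (1.05) and Trp63 as the mean of its probes (-3.12). The cause was not tested. Calls for Cldn18 were also lost under median centring (0.46) and the scanner ratio (limma adjusted p 0.17), and for Cyp1b1 with all 29 lung and forestomach arrays in 1 fit (limma adjusted p 0.062). For genes not well above background in a tissue, the fitted differences rest on signal that was not measured there.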
